A study of Homo sapiens with 6 samples.

Results

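LCP1 and 9 other genes of proteins that bundle actin filaments or tie them to other structures (PLS1, PLS3, FSCN1, VIL1, ACTN1, ACTN4, ESPN, EZR and CORO1A) were followed in HT29 cells, 10 genes of 60676 listed. The genes were found by their gencode symbol, and all 10 had a row in the data. LCP1 was chosen by its change after histidine depletion, so its values in that contrast, and those of the other members, are given as a description with no p-value, and their count of calls there is printed only beside that of all genes. HT29 is a human colorectal adenocarcinoma line. Cells were grown for 48 h in control medium (untreated), without histidine or without tryptophan, and poly(A) RNA of 2 samples per condition was sequenced. RPMI was the base of the medium lacking histidine and DMEM F-12 that of the medium lacking tryptophan. Both depleted media held dialyzed serum. The base and the serum of the control medium for RNA-seq are not named in the sources used here. Effects of the amino acid, of the base medium and of the serum therefore cannot be told apart. Tryptophan depletion served the study as a control for amino acid stress at large.

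Actin filaments gain stiffness when proteins hold them side by side. The plastins, also called fimbrins, make tight parallel bundles. LCP1 (L-plastin) is best known from leukocytes and is also found in many carcinoma cells, PLS1 (I-plastin) is known from the microvilli of the intestine, and PLS3 (T-plastin) from solid tissues. Villin (VIL1) and espin (ESPN) bundle the filaments inside microvilli, fascin (FSCN1) those of filopodia, and the alpha-actinins (ACTN1, ACTN4) cross-link filaments in stress fibres and at adhesions. Ezrin (EZR) links filaments to the plasma membrane and coronin 1A (CORO1A) binds filaments and the Arp2/3 complex in leukocytes, so neither is mainly a bundler although both were included.

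The LCP1 gene (ENSG00000136167) lies on chromosome 13 of GRCh38, from 46125920 to 46211871 on the minus strand. RefSeq windows around a start site (GRCh38.p14, 250 bases before to 50 after it) were found for 7 of the 10 members, and FSCN1, VIL1 and ESPN are named only. The 250 bases before the first listed start site are shown for LCP1, on which the results turn, for its paralogs PLS1 and PLS3 to compare the family, and for EZR, which had the highest fold change after histidine depletion of the members abundant in untreated cells. They are chr13:46182178-46182427 (minus strand), chr3:142596143-142596392 (plus), chrX:115560924-115561173 (plus) and chr6:158818236-158818485 (minus). Capitals mark matches to the letters of a TATA box (TATAAA), an AP-1 site (TGANTCA) or a kappa-B site.
LCP1: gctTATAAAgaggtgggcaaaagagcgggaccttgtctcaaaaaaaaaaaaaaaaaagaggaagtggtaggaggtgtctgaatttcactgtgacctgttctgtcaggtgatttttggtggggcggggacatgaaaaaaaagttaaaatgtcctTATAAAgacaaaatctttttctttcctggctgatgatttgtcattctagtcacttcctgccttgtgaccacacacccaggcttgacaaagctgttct
PLS1: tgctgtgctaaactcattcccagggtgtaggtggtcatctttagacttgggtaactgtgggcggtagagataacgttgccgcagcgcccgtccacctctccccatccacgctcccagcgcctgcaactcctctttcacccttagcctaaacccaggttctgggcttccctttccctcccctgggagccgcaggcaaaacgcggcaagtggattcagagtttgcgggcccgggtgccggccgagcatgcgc
PLS3: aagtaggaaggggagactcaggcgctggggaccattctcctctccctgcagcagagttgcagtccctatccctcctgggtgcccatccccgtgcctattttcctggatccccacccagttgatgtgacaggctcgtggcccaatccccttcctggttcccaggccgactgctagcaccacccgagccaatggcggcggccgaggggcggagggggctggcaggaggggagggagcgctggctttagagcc
EZR: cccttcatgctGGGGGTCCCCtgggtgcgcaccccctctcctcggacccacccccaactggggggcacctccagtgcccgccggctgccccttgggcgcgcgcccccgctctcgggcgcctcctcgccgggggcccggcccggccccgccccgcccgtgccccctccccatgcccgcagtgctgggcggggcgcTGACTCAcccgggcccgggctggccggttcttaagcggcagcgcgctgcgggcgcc

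The LCP1 start site of this window lies inside the gene's annotated span and is that of its canonical transcript. Its window of 300 bases held TATAAA at 247 and 97 bases before the start, a GC box (GGGCGG, not capitalised) at 131 bases before it, and no match to an AP-1, CArG or kappa-B site. Of 35116 windows of the same length, 11.5% held TATAAA, 45.0% a GC box, 7.71% an AP-1 site, 1.29% a CArG box and 5.91% a kappa-B site on either strand. The LCP1 window was poor in G and C, at 42.7% against a median of 58.7% over all windows. The first windows of PLS1 and PLS3 had 63.0% and 63.3% and held a GC box each and none of the other 4 motifs. The EZR window had 80.0% G and C and held 5 GC boxes, TGACTCA at 56 bases before the start and the kappa-B letters at 239 bases before it. Among the other windows of members, the first of ACTN4 held an AP-1 match, and the third of ACTN1 held a CArG box and the letters of a TATA box. A match is a description of the letters and not of binding.

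The libraries held 46390819 to 64388876 reads recovered from the deposited values. Replicates of a condition differed by more than counting noise, with a chi-square of 8.77 (untreated), 4.03 (histidine depleted) and 1.85 (tryptophan depleted) per degree of freedom. Nothing in the sources used here says whether replicates were separate cultures, so the spread between samples may be technical. With 2 samples per condition, limma also draws the variance of a gene from other genes of like abundance. Its p-values and standard errors therefore do not measure the spread of that gene's own samples alone, and very small p-values depend on this borrowing. All 14 markers of colon epithelium were detected in untreated cells. Their summed scaled counts were 479857 and 510998 in untreated, 636667 and 670383 in histidine-depleted and 683452 and 680805 in tryptophan-depleted libraries. KRT8 held the largest part of these sums. Of the 14, 8 were called higher after histidine depletion, among them KRT20 (log2 fold change 1.74) and KRT19 (1.55). The 6 called lower included LGALS4 (-1.57), CDX2 (-1.37), KRT18 (-0.52) and CDX1, which was at 0 reads in both histidine-depleted libraries. After tryptophan depletion 8 of the 14 were called higher and 3 lower, where 36.1% and 34.8% of all genes tested were. Scaled counts are reads divided by a size factor shared over all 6 libraries. A large share of all genes differed from untreated cells in either depletion. Among 18288 genes tested after histidine depletion, 39.1% were called higher and 38.2% lower by limma at an adjusted p under 0.05.

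LCP1 was nearly silent in untreated cells and abundant after histidine depletion. Untreated cells gave 6 and 2 LCP1 reads, cells without histidine 11779 and 9796, and cells without tryptophan 2 and 7. On the scaled count these were 6.58 and 2.00, 10685 and 10007, and 2.14 and 6.44. Both histidine-depleted libraries stood far above the other 4, and the untreated and tryptophan-depleted libraries overlapped. The log2 fold change after histidine depletion was 11.09 (standard error 0.227). That standard error draws on other genes of like abundance and is not the replicate spread of LCP1 itself. The fold change depended on the pseudocount, with 9.74 at a pseudocount of 8. It also depended on the few untreated reads, with 11.75 without untreated replicate 1 and 10.42 without untreated replicate 2. The ratio of the summed reads, 21575 against 8, was 2478 after scaling, with an exact 95% interval from 1258 to 5741 that covers counting error only.

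After tryptophan depletion LCP1 summed to 9 reads against 8 in untreated cells, a ratio of 1.06 with an exact 95% interval from 0.365 to 3.17 that covers counting error only. A difference between them was not detected, and one inside that interval could not be seen at this depth. LCP1 was below the mean of 10 normalized counts needed for the test of tryptophan depletion. Among 19892 protein-coding genes ordered by scaled count per kb of exons, LCP1 stood at ranks 13669 and 14651 in untreated cells, at 1140 and 1236 without histidine and at 14540 and 13636 without tryptophan. In bulk RNA, a change in the share of cells that express a gene and a change in RNA per cell cannot be told apart.

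**Figure D1:**
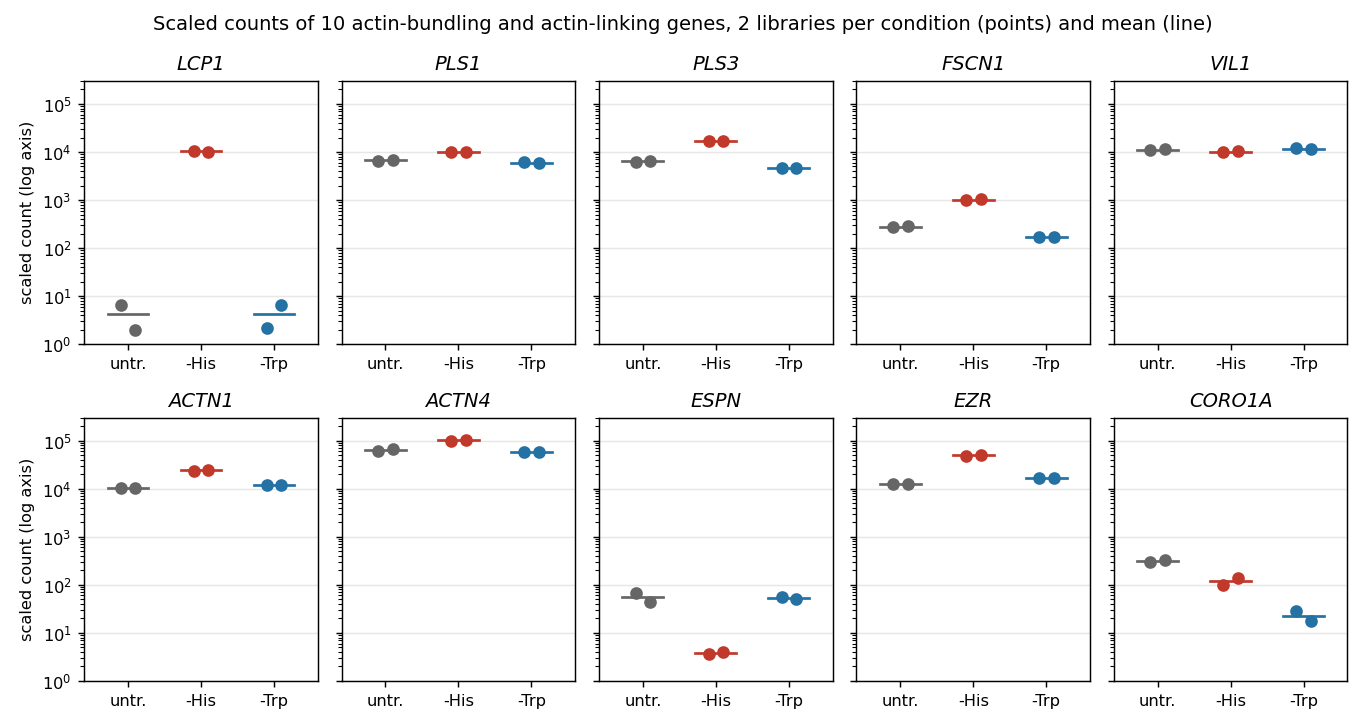
Scaled counts of the 10 genes on a log axis (points, 2 libraries per condition: untreated, without histidine, without tryptophan; lines, means). LCP1 rises from 6.58 and 2.00 in untreated cells to 10685 and 10007 without histidine, while ESPN and CORO1A lie lower without histidine than in untreated cells.

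The genes around LCP1 showed no rise of its size. Of the 3 nearest protein-coding genes on either side, SIAH3 and LRRC63 had 0 reads in every library. LRRC63 starts 56 bases beyond the LCP1 gene on the opposite strand. CPB2 had 0 to 6 reads per library, and RUBCNL had 3 and 1 reads in untreated cells, 8 and 7 without histidine and 1 and 0 without tryptophan. The expressed neighbours moved little. ZC3H13, 73.2 kb away, had a log2 fold change of 0.051 after histidine depletion (limma adjusted p = 0.367) and -0.13 after tryptophan depletion (adjusted p = 0.0104). LRCH1, 341 kb away, had -0.17 (limma adjusted p = 0.00253) and -0.19 (adjusted p = 0.000168).

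Exons of a long noncoding gene on the opposite strand, CPB2-AS1, cover 19.0% of LCP1 exonic bases, and it had 0 to 4 reads per library. The protein-coding genes whose profiles over the 6 libraries lay nearest to that of LCP1, by Euclidean distance on log2(scaled count + 1) centred on the untreated mean, were MARCHF4, PLA2G4C and RELN, at distances of 4.35, 4.51 and 5.76 among 11417 genes. MARCHF4, a membrane-bound ubiquitin ligase gene, had 0 reads in the untreated and tryptophan-depleted libraries and 303 and 283 without histidine. PLA2G4C, a phospholipase A2 gene, had 31 and 38 reads in untreated cells, 11648 and 9831 without histidine and 52 and 84 without tryptophan. RELN, which encodes the secreted protein reelin, had 1 and 2, 460 and 404, and 1 and 0 reads.

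PLS3, the plastin of solid tissues, was also higher after histidine depletion, from a high base. Its scaled counts were 6180 and 6582 in untreated cells, 17219 and 16748 without histidine, and 4720 and 4727 without tryptophan. The 3 conditions did not overlap, and the tryptophan-depleted libraries were the lowest. PLS3 was 2.68-fold higher after histidine depletion (log2 fold change 1.42, standard error 0.0512). After tryptophan depletion it fell by 0.44 on the log2 scale (standard error 0.0471, limma adjusted p = 9.34e-16), or 1.36-fold.

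PLS1, the plastin of microvilli, had the same order with smaller steps. Its scaled counts were 6571 and 6928 in untreated cells, 10162 and 9870 without histidine, and 6157 and 5916 without tryptophan. The log2 fold change after histidine depletion was 0.58 (standard error 0.0505), and 0.34 with quantile normalization. After tryptophan depletion PLS1 fell by 0.17 on the log2 scale (standard error 0.0468, limma adjusted p = 0.000810), a call that was lost without tryptophan-depleted replicate 2 (log2 fold change -0.15, adjusted p = 0.110) and without the mean-variance trend (adjusted p = 0.0765).

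Per kb of exons the plastin family as a whole was at 2754 and 2919 scaled counts in untreated cells, 8235 and 7931 without histidine, and 2318 and 2275 without tryptophan. LCP1 made up 0.0471% and 0.0135% of that sum in untreated cells, 25.6% and 24.9% without histidine, and 0.0182% and 0.0557% without tryptophan. PLS3 kept the highest share of the family without histidine, 51.1% and 51.6%, against 54.8% and 55.1% in untreated cells. The share of PLS1 was 45.1% and 44.9% in untreated cells, 23.3% and 23.5% without histidine, and 50.2% and 49.2% without tryptophan. Dividing by the length of the canonical transcript gave 26.9% and 26.1% for LCP1 without histidine. The coding sequences of the canonical transcripts were 69.2% identical between LCP1 and PLS1, 74.2% between LCP1 and PLS3 and 69.8% between PLS1 and PLS3 in aligned bases.

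**Figure D2:**
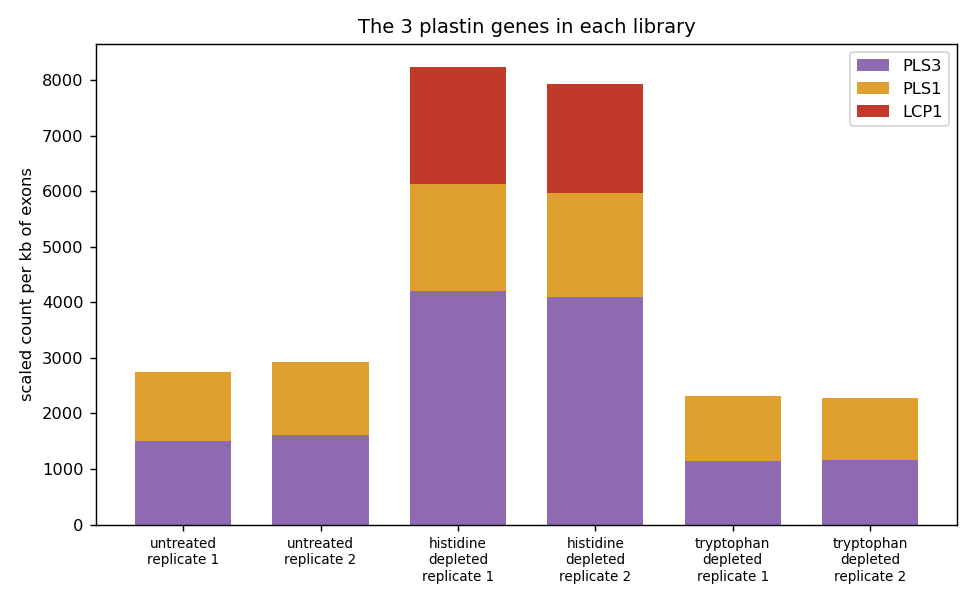
Scaled counts per kb of exons of PLS3, PLS1 and LCP1, stacked for each of the 6 libraries. The family sum is 8235 and 7931 without histidine against 2754 and 2919 in untreated cells, and LCP1 takes 25.6% and 24.9% of it there.

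FSCN1, the bundler of filopodia, was the least abundant of the members that were higher after histidine depletion apart from LCP1. Its scaled counts were 269 and 287 in untreated cells, 1011 and 1037 without histidine, and 172.5 and 171.9 without tryptophan. The conditions did not overlap and the replicates lay close together. FSCN1 was 3.70-fold higher after histidine depletion (log2 fold change 1.89, standard error 0.0818). It fell by 0.69 on the log2 scale after tryptophan depletion (standard error 0.118, limma adjusted p = 7.19e-08), or 1.62-fold, so the direction after tryptophan depletion was opposite.

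The members other than PLS1 described above as bundlers of microvilli, VIL1 and ESPN, were not higher after histidine depletion. VIL1 had scaled counts of 10837 and 11354 in untreated cells, 9774 and 10400 without histidine, and 11882 and 11763 without tryptophan. Those values lie within a narrow range. With quantile normalization PLS1 had the smallest absolute log2 fold change of the 10 members after histidine depletion (0.34, against -0.39 for VIL1). In the main fit VIL1 had the smallest. Its log2 fold change was -0.13 after histidine depletion (standard error 0.0514; -0.087 without histidine-depleted replicate 1) and 0.084 after tryptophan depletion (standard error 0.0469, limma adjusted p = 0.0992). Without untreated replicate 2 the latter was 0.12 (limma adjusted p = 0.000726), and edgeR on the recovered reads gave an adjusted p of 0.0192. Of VIL1 exonic bases, 44.2% are shared with USP37 on the opposite strand. USP37 had scaled counts from 848 to 1199 and a log2 fold change of -0.48 after tryptophan depletion (limma adjusted p = 1.82e-11). The libraries were made with a stranded kit, but whether the counting used the strand is not stated.

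ESPN was scarce throughout and nearly absent without histidine. It had 62 and 43 reads in untreated cells, 4 and 4 without histidine, and 52 and 54 without tryptophan. Both histidine-depleted libraries were below the other 4, and the untreated and tryptophan-depleted libraries overlapped. The log2 fold change after histidine depletion was -3.49 (standard error 0.376), or 11.3-fold lower, and it was -2.38 at a pseudocount of 8. After tryptophan depletion it was -0.047 (standard error 0.228, limma adjusted p = 0.863), and the sign turned without untreated replicate 1 (0.28, adjusted p = 0.354) or without tryptophan-depleted replicate 2 (0.029, adjusted p = 0.936). The pseudogene ESPNP had 14 and 8, 2 and 5, and 10 and 15 reads in the same order, and reads shared between the copies may have been split.

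ACTN1 and ACTN4, the cross-linkers of stress fibres and adhesions, were both higher without histidine. ACTN1 had scaled counts of 10167 and 10519 in untreated cells, 23766 and 24427 without histidine, and 11778 and 12016 without tryptophan. The untreated libraries were the lowest, without overlap. Its log2 fold change was 1.23 after histidine depletion (standard error 0.0507). After tryptophan depletion it was 0.19 (standard error 0.0468, limma adjusted p = 0.000113), and the call was lost without tryptophan-depleted replicate 2 (0.17, adjusted p = 0.0706).

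ACTN4 was the most abundant member in every condition. Its scaled counts were 60409 and 65891 in untreated cells, 99096 and 102644 without histidine, and 57780 and 59275 without tryptophan. The log2 fold change was 0.69 after histidine depletion (standard error 0.0662). After tryptophan depletion it was -0.12 (standard error 0.0589, limma adjusted p = 0.0704), and its size depended on which untreated library was kept. Without untreated replicate 2 it was -0.053 (limma adjusted p = 0.0848), and without untreated replicate 1 it was -0.18 and past the threshold (adjusted p = 7.16e-10). Leaving out a tryptophan-depleted library gave adjusted p of 0.580 and 0.379 with limma. It also passed with quantile normalization (-0.21, adjusted p = 2.14e-05), with edgeR (adjusted p = 0.00379) and with DESeq2 (adjusted p = 0.00435). ACTN1 made up 6.72% and 6.39% of both actinins per kb of exons in untreated cells, 9.30% and 9.24% without histidine, and 8.02% and 7.98% without tryptophan. These shares depend on the divisor, as annotated exons of ACTN1 sum to 14.3 kb against a canonical transcript of 3.72 kb. Per kb of canonical transcript the share of ACTN1 was higher. The means of ACTN1 and ACTN4 were then 2779 and 12655 in untreated cells, 6474 and 20214 without histidine, and 3196 and 11729 without tryptophan. The coding sequences of ACTN1 and ACTN4 were 82.5% identical, and the pseudogene ACTN4P1 had scaled counts from 83.6 to 177. CAPN12, on the opposite strand of 14.2% of ACTN4 exonic bases, had scaled counts from 397 to 1188.

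EZR, the linker of filaments to the membrane, had the highest fold change after histidine depletion of the members that were abundant in untreated cells (above 1000 scaled counts). Its scaled counts were 12393 and 12688 in untreated cells, 48504 and 50160 without histidine, and 16532 and 16663 without tryptophan. The 3 conditions were separate, with the untreated libraries lowest. EZR was 3.96-fold higher after histidine depletion (log2 fold change 1.98, standard error 0.0528). After tryptophan depletion it rose 1.32-fold, by 0.40 on the log2 scale (standard error 0.0475, limma adjusted p = 2.26e-13).

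CORO1A, like LCP1 a gene known from leukocytes, went the other way from LCP1. It had 271 and 322 reads in untreated cells, 109 and 133 without histidine, and 26 and 19 without tryptophan. The conditions did not overlap, and the tryptophan-depleted libraries were the lowest. CORO1A was 2.64-fold lower after histidine depletion (log2 fold change -1.40, standard error 0.140). After tryptophan depletion it fell by 3.75 on the log2 scale (standard error 0.187, limma adjusted p = 1.46e-41), or 13.5-fold, the largest change of a member in that comparison.

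Of 10 members tested after histidine depletion, 7 were called higher and 3 lower (VIL1, ESPN and CORO1A), beside the background of 39.1% and 38.2% of all genes given above, with a median log2 fold change of 0.96 (0.010 over all tested genes). Because that contrast chose LCP1, nothing is read from this count or this median. The VIL1 call was lost in 5 alternatives: without the mean-variance trend, without the filter on low counts, and without histidine-depleted replicate 1, histidine-depleted replicate 2 or untreated replicate 2. After tryptophan depletion, 36.1% of 17960 tested genes were called higher and 34.8% lower. Of the 9 members tested there, 2 were called higher (ACTN1 and EZR), 4 lower (PLS1, PLS3, FSCN1 and CORO1A) and 3 were not called (VIL1, ACTN4 and ESPN), with a median of -0.12 against 0.013 over all genes. With 9 genes, shares of this order are no result about the members.

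**Figure D3:**
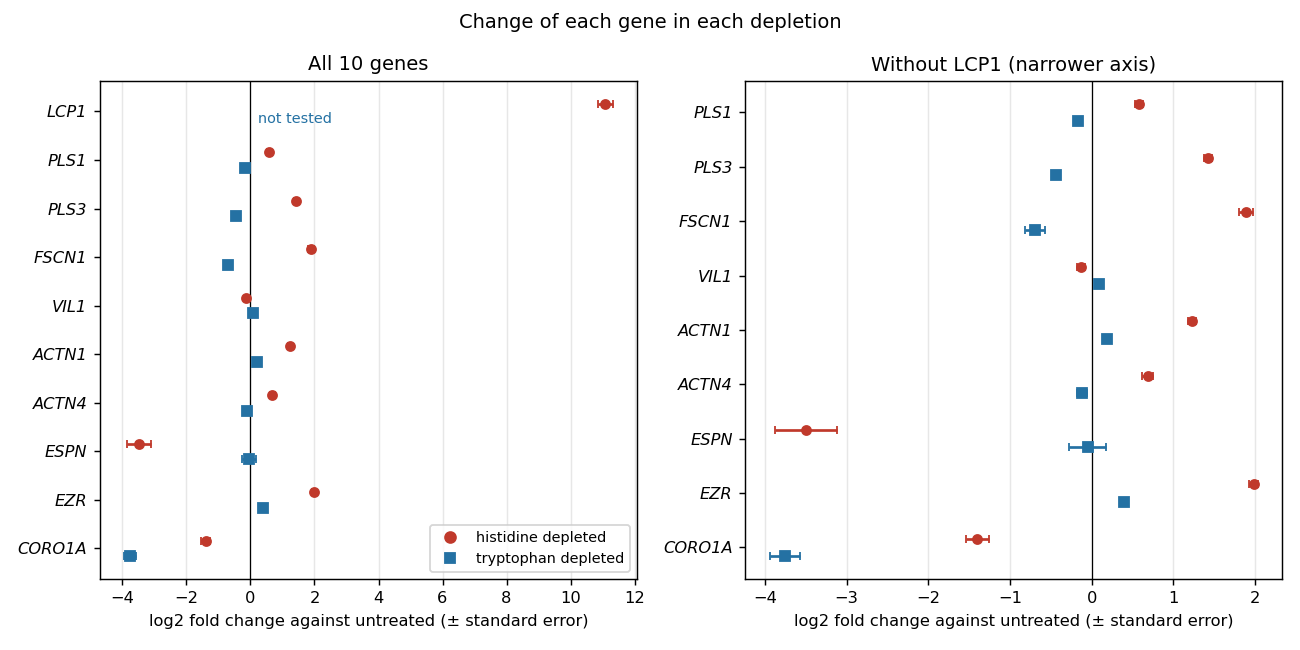
Log2 fold changes against untreated cells with their standard errors for histidine (circles) and tryptophan depletion (squares), for all 10 genes on the left and without LCP1 on a narrower axis on the right. LCP1 was not tested after tryptophan depletion; without histidine it stands at 11.09, while the other 9 lie between -3.49 and 1.98.

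Both depletions share the untreated libraries, so the depletions were also compared directly, on reads of all 6 libraries scaled together. The histidine-depleted libraries that chose LCP1 enter here too, so the members are again given with no p-value and nothing is read from their count. Of 18289 genes, 39.8% were called higher without histidine than without tryptophan and 38.4% lower, and of the 10 members 8 were called higher and 2 lower. LCP1 was higher by 11.06 on the log2 scale (standard error 0.282), by 10.44 without tryptophan-depleted replicate 1, by 11.68 without replicate 2 of that group and by 9.74 at a pseudocount of 8. ESPN was lower, with a log2 difference of -3.47 that was -2.35 at a pseudocount of 8. FSCN1 was higher by 2.57 (0.0720), CORO1A by 2.34 (0.257), PLS3 by 1.85 (0.0276) and EZR by 1.57 (0.0253). Among these, CORO1A was below the untreated level in both depletions. The differences were 1.02 for ACTN1, 0.79 for ACTN4 and 0.73 for PLS1. VIL1 was lower without histidine, with a log2 difference of -0.23.

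Levels of different genes were set side by side per kb of exons. In untreated cells ACTN4 was highest with a mean of 10310 scaled counts per kb (SD 633, n = 2), followed by EZR (3816), VIL1 (1610), PLS3 (1559), PLS1 (1276) and ACTN1 (722). FSCN1 (75.1), CORO1A (64.8), ESPN (8.00) and LCP1 (0.845) stood far lower. VIL1 and PLS3 overlapped between libraries. Without histidine the order was ACTN4 (16469), EZR (15013), PLS3 (4150), LCP1 (2038), PLS1 (1894), ACTN1 (1683), VIL1 (1464), FSCN1 (277), CORO1A (24.6) and ESPN (0.556). LCP1 had thus moved from the last place to that after PLS3, and its lower library, at 1971, lay close above the higher PLS1 library, at 1922.

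Without tryptophan the order was ACTN4 (9555), EZR (5051), VIL1 (1716), PLS3 (1154), PLS1 (1142), ACTN1 (831), FSCN1 (46.6), ESPN (7.59), CORO1A (4.74) and LCP1 (0.845), and PLS3 and PLS1 overlapped. The divisor matters most for ACTN1, whose annotated exons sum to 14.3 kb against a canonical transcript of 3.72 kb. By the canonical transcript ACTN1 came after EZR in all conditions, with means of 2779, 6474 and 3196 scaled counts per kb, and LCP1 without histidine came after PLS3 at 2840. It also changed other places. By the canonical transcript VIL1 in untreated cells (1707) came after PLS3 (1941) and PLS1 (1824), and CORO1A (190.7) came before FSCN1 (99.8). Without tryptophan PLS1 (1631) then came before PLS3 (1437).

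The coding sequences of the plastins held few histidine codons. The canonical transcript of LCP1 had 8 histidine codons among 627, or 1.28%, which is at percentile 12.3 of 19723 genes, whose median was 2.43%. PLS1 had 9 of 629 and PLS3 11 of 630. VIL1 (18 of 827), CORO1A (10 of 461), FSCN1 (11 of 493) and EZR (12 of 586) were below the median too, at 2.18%, 2.17%, 2.23% and 2.05%. The actinins and espin were above it, with 27 of 914 codons in ACTN1, 31 of 911 in ACTN4 and 31 of 854 in ESPN. ESPN, at 3.63%, had the highest share of the 10 members. Tryptophan codons made up between 0.937% (ESPN) and 2.18% (VIL1) of the members' codons, with a median of 1.13% over all genes. These shares describe the sequences, and no relation to the changes in RNA was tested.

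Since LCP1 and CORO1A are known from leukocytes, 19 leukocyte markers were counted. Their summed scaled counts were 1039 and 1027 in untreated, 934 and 954 in histidine-depleted and 926 and 952 in tryptophan-depleted libraries. CD37 held the largest part of the untreated sums, at 537 and 461, and was at 138 and 154 without histidine. The sums therefore do not show how the other markers moved. PTPRC, the gene of the leukocyte surface protein CD45, had 0 to 2 reads per library. CD48, IKZF1, TYROBP, CD3D, MS4A1 and PLEK were at 0 in every library, and 8 of the 19 never exceeded 3 reads. Of 8 markers tested after histidine depletion, 4 were called higher and 2 lower, and of 7 after tryptophan depletion, 1 higher and 4 lower, where the shares of all genes were 39.1% and 38.2% for histidine, and 36.1% and 34.8% for tryptophan. With so few markers, nothing is read from these counts. CD53 went from 0 reads in untreated cells to 18 and 28 without histidine, and WAS from 33 and 31 to 123 and 111. FERMT3 went from 214 and 263 reads to 506 and 417, and ITGAM from 60 and 77 to 114 and 95. SPI1, too low to be tested, went from 0 and 1 to 17 and 8. CD37, the most abundant tested marker in untreated cells, went from 489 and 462 reads to 152 and 151, and CD14 from 95 and 120 to 56 and 62. All 6 mast cell markers had at most 1 read per library. The 6 fibroblast and muscle markers summed to 83.4 and 80.9 scaled counts in untreated, 30.8 and 40.9 in histidine-depleted and 56.8 and 69.9 in tryptophan-depleted libraries.

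The other genes of the actin machinery were described by 141 genes listed by role in 10 groups. After histidine depletion 70 of 128 tested were higher and 43 lower, or 54.7% and 33.6%, with a median log2 fold change of 0.24. Among all genes whose mean normalized count reached 1000 or more, 49.0% were higher and 39.1% lower. After tryptophan depletion 58 of 129 were higher and 53 lower, or 45.0% and 41.1%, with a median of 0.051, and among genes of that abundance 44.5% were higher and 39.2% lower. Many of the listed genes were less abundant than that. Over all genes tested, 39.1% were higher and 38.2% lower without histidine, and 36.1% and 34.8% without tryptophan, and the counts of each group below stand beside these shares. The groups are small, and nothing particular to a group is read from its count.

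Among 24 crosslinkers and other bundlers, 13 of 19 tested were higher and 5 lower after histidine depletion, and 10 of 21 higher and 10 lower after tryptophan depletion (all genes tested, 39.1% and 38.2%, and 36.1% and 34.8%). CALD1, encoding the actin-binding protein caldesmon, had normalized counts of 308 ± 19.0 in untreated cells and 4262 ± 99.4 without histidine (mean ± SD, n = 2), a rise of 3.79 on the log2 scale (limma adjusted p = 1.08e-23). SYNPO, the gene of synaptopodin, rose in both depletions (3.46, limma adjusted p = 1.27e-14, and 2.42, adjusted p = 1.62e-25). AIF1L, whose protein binds and bundles actin, fell in both (log2 fold change -2.71, limma adjusted p = 3.66e-15, and -2.08, adjusted p = 3.48e-37). In the villin and gelsolin family, 4 of 7 were higher and 2 lower without histidine, and 5 of 7 higher and none lower without tryptophan. FLII, a relative of gelsolin, rose by 1.81 without histidine (limma adjusted p = 7.84e-20), and CAPG, a capping protein, by 0.79 without tryptophan (adjusted p = 3.37e-34).

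Around EZR, 6 of 11 ERM proteins and linkers were higher and 5 lower without histidine, and 7 higher and 2 lower without tryptophan. CD44, the adhesion receptor whose tail binds ERM proteins, fell in both (log2 fold change -2.77, limma adjusted p = 8.32e-23, and -1.28, adjusted p = 6.38e-55). Of 16 brush border genes, which work in microvilli with PLS1, VIL1, ESPN and EZR, 5 were higher and 8 lower without histidine, where 39.1% and 38.2% of all genes tested were, and 10 higher and 3 lower without tryptophan, where 36.1% and 34.8% were. MYO7B, a myosin of microvillus tips, fell by 2.71 without histidine (limma adjusted p = 1.23e-12), and USH1C, a scaffold of the same complex, fell by 2.06 (adjusted p = 1.98e-20). CDHR5, a cadherin that links microvilli, rose by 2.52 without tryptophan (limma adjusted p = 5.96e-87).

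Of the coronins beside CORO1A, 2 of 4 were higher and 2 lower without histidine, and 3 of 4 lower without tryptophan. CORO2A fell by 2.00 on the log2 scale without histidine (limma adjusted p = 7.04e-19). CORO1C rose by 0.82 without histidine (limma adjusted p = 3.20e-13) and fell by 0.67 without tryptophan (adjusted p = 4.58e-28). Like PLS1 and PLS3, the cytoplasmic actins were higher without histidine and lower without tryptophan. ACTB rose by 0.90 without histidine (limma adjusted p = 7.83e-10) and fell by 0.47 without tryptophan (adjusted p = 1.43e-08), and ACTG1 rose by 0.65 (adjusted p = 3.86e-07) and fell by 0.30 (adjusted p = 0.000472). Of the genes for monomer binding, capping and severing, 15 of 21 were higher and 4 lower without histidine, and 7 higher and 10 lower without tryptophan. CFL2, a cofilin that severs filaments, rose by 2.01 without histidine (limma adjusted p = 9.48e-17).

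For Arp2/3 and its activators, 10 of 19 were higher and 6 lower without histidine, and 8 and 9 without tryptophan. The group listed as formins and other nucleators also holds the Ena/VASP genes ENAH, VASP and EVL, so its name does not describe every gene in it. It had 6 of 15 higher and 7 lower without histidine, and 8 higher and 6 lower without tryptophan. EVL was lower without histidine by 3.18 on the log2 scale (-3.18, limma adjusted p = 1.33e-12), from 171 and 188 reads to 26 and 16. Of tropomyosins and nonmuscle myosin 2, 6 of 12 were higher and 4 lower without histidine, and 3 and 7 without tryptophan. For these 3 groups too, the shares of all genes tested were 39.1% and 38.2%, and 36.1% and 34.8%. MYL9, a myosin light chain, rose in both, by 3.30 (limma adjusted p = 8.96e-20) and by 1.71 (adjusted p = 3.08e-36). MYL12B, another light chain, fell by 0.80 without tryptophan (limma adjusted p = 2.27e-31). Quantile normalization turned the sign of the histidine median of Arp2/3 (0.17 to -0.016) and of tropomyosins and myosins (0.17 to -0.052), and that of the tryptophan median of the monomer group (0.051 to -0.050).

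**Figure D4:**
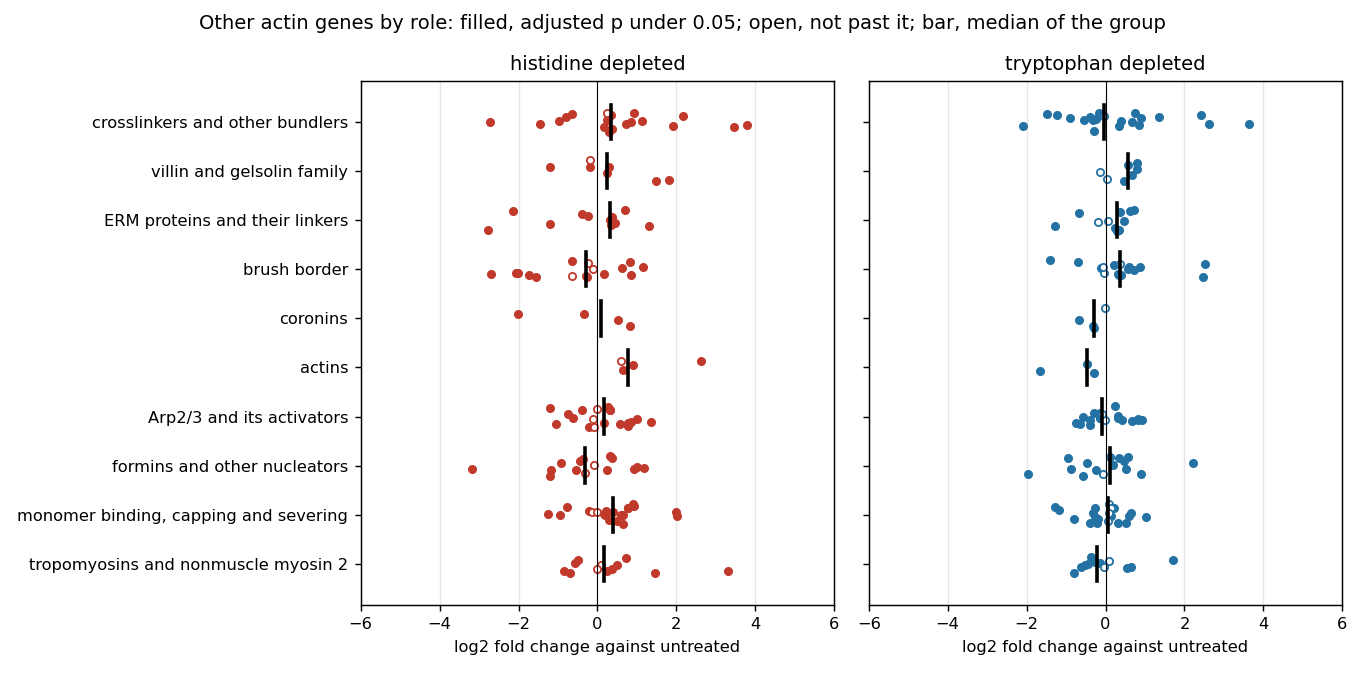
Log2 fold changes of the tested genes of 10 actin role groups, without histidine on the left and without tryptophan on the right (filled, limma adjusted p under 0.05; open, not past it; bar, group median). Brush border genes have a median of -0.28 on the left and 0.36 on the right, and actins 0.78 and -0.47.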

How the data were processed

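The authors aligned the reads with STAR 2.7.10a to GRCh38, counted them per gene with htseq-count 2.0.5 and deposited, per depletion, a table of normalized counts, the counts divided by DESeq2 size factors (a signal of 0 or more). The libraries were stranded. How the counting treated molecular identifiers, strand and multiply mapped reads is not given in the sources used here. Each value was divided by its library's step, which gave whole reads for 100% of values (tolerance 0.01). Of 60676 identifiers, 60357 matched gencode release 44.

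Each depletion was tested within its own table by limma 3.58.1 (R 4.3.3, trend on, two-sided), using log2(normalized count + 1) of the genes that averaged 10 or more, with Benjamini-Hochberg adjustment over all tested genes and a threshold of 0.05. This scale understates changes of low genes. For levels and the direct comparison, reads of all 6 libraries were scaled by median-of-ratios size factors. Motifs were searched on both strands, and overlaps were allowed. The code was tested on simulated data.

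The members and lists were chosen with earlier results of these data known. Besides the members, the rule for named genes took up to 2 genes per role group and depletion with the largest change past the threshold and a mean of at least 100 in the higher group, the 3 nearest protein-coding genes on each side of LCP1, genes overlapping member exons and the 3 genes most like LCP1. Not every gene it selects is printed. The alternatives tried were edgeR 4.0.16 and DESeq2 1.42.0 on recovered reads, quantile normalization, limma without trend, pseudocounts of 8 and 0.5, a minimum mean of 50 or none, all 6 libraries in 1 fit, a replicate block, and leaving out each library. Python 3.11.15, pandas 2.3.3, numpy 2.4.6, scipy 1.17.1 and matplotlib 3.10.9 were used.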

Additional observations from a re-analysis of the deposited data

How the results depend on the processing

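The directions of all 10 members after histidine depletion and in the direct comparison were the same in every alternative in which they were tested (ESPN was too low for a minimum mean of 50). The log2 fold change of LCP1 after histidine depletion ranged from 9.74, at a pseudocount of 8, to 11.75. Quantile normalization moved VIL1 in that comparison from -0.13 to -0.39 and PLS1 from 0.58 to 0.34. VIL1 after histidine depletion was not past the threshold in 5 settings, those named above. After tryptophan depletion, quantile normalization turned VIL1 to -0.0020, and ESPN turned to 0.28 without untreated replicate 1 and to 0.029 without tryptophan-depleted replicate 2, in a range from -0.37 to 0.28 with each library left out. The members called there numbered 4 to 8 over the settings, and the calls over all genes moved too. Limma without trend called 5 of 9 members and 11071 of 17960 genes. DESeq2 called 7 of 9 and 10777 of 17960, and edgeR 8 of 9 and 12839 of 17960. Nothing is read from these member counts, and all gene counts stayed within 1.5 times those reported.

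Samples share only replicate numbers across conditions. The correlation of deviations of same-numbered samples was 0.12 (untreated and histidine), -0.052 (untreated and tryptophan) and -0.10 (both depletions) over 12486 genes. With a replicate block, 14432, 12766 and 14339 genes were called in the histidine, tryptophan and direct comparisons, against 14130, 12721 and 14311 without it, and ACTN4 after tryptophan depletion passed the threshold (adjusted p = 0.0358). With the numbers crossed between the depletions, an alternative chosen after seeing the data, the direct comparison called 14547 genes. Low reads limit LCP1 outside histidine depletion and ESPN in it.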
